A study of Mus musculus with 78 samples.

Results

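Whole ventral hippocampus was profiled by poly(A) RNA sequencing in 12 mice, 6 with a deletion in Acss2 (KO) and 6 without it (WT), and the question here was which transcripts differed between the genotypes in that region. The members are every library whose title gives ventral hippocampus as the region: 12 of the 78 libraries of the series, which cover 7 brain regions. Both genotypes held 3 males (KO mice NQ1, NQ2 and NQ10, WT mice NQ3, NQ12 and NQ13) and 3 females (KO mice NQ4, NQ5 and NQ6, WT mice NQ11, NQ23 and NQ24). All animals were single-housed adult C57BL6/J mice, with no age given. All of them, WT included, had been through drinking in the dark, a rodent paradigm of binge drinking. Ethanol at 15% by volume was offered during the dark phase in sessions of 2 h on days 1 to 3 and 4 h on day 4. In a first week water stood beside the ethanol, and in a second week it did not. No group without ethanol was analysed here, so the comparison is between genotypes of drinking mice. The deletion is constitutive, so it is carried by every cell type, and the line was made by injecting Cas9 and paired guides into embryos, with founders then bred to C57Bl6/J mice for 3 generations. The labels do not say how many founder lines the mice came from or whether WT mice were littermates. The counts were deposited as a table for males and a table for females, so table and sex cannot be told apart.

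Acss2 encodes acyl-CoA synthetase short-chain family member 2, a nuclear and cytosolic enzyme that joins acetate to coenzyme A. Acetate is an end product of ethanol breakdown in the liver, reaches the brain in the blood, and can be used for histone acetylation and lipid synthesis once it is acetyl-CoA. The ventral hippocampus is the part of the hippocampal formation most tied to emotional behaviour and projects to the ventral striatum and amygdala.

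The gene lies on chromosome 2 (chr2:155517948-155585724, plus strand, GRCm38). In GENCODE's transcript Acss2-201, which has 18 exons and 2931 bases, exons 3 to 7 span chr2:155549191-155550469 and are coding throughout. The first and the last of these exons are shown because they bound the stretch that the labels give as removed, and the join of exon 2 to exon 8 is shown because it is what a transcript lacking that stretch would carry. The sequences are from the reference, on the plus strand, and the numbering of exons by the labels may differ from that of this transcript. Capitals in the join mark its stop codon.
exon 3, chr2:155549191-155549282: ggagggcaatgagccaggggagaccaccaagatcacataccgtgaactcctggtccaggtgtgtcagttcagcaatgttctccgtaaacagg
exon 7, chr2:155550355-155550469: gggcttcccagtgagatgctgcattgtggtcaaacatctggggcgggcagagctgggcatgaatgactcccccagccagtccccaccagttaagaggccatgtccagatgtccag
exon 2 joined to exon 8: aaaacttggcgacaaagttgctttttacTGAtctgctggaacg
The 5 exons hold 460 bases, 15.7% of the transcript, and 460 leaves a remainder of 1 when divided by 3. Joined in this way, the reference reading frame ends at the stop codon after 124 codons, against 701 codons in the intact frame. The remaining 84.3% of the transcript can still give reads, and a count per gene does not show from which exons they came.

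Library totals ran from 629635 to 1206013 counts, while the dorsal hippocampus of the same mice had 4454420 to 8607138. A limit of 3 counts therefore stood at 2.49 to 4.76 CPM (counts divided by the library total and rescaled), which covers counting error only. Xist was at 0 to 1.92 CPM in males and 434 to 1077 CPM in females, and the Y-linked Ddx3y was at 67.5 to 86.4 CPM in males and 0 in females, so each library matched the sex in its label. The library of KO female NQ6 stood apart in striatal genes. Its 16 genes of striatal projection neurons summed to 5562 CPM, 13.4 times the median of 416 CPM in the other 11 libraries. The pooled comparison of KO with WT and the sex interaction were repeated without that library. The dorsal hippocampus fit and the region interaction were repeated without mouse NQ6. The dorsal hippocampus library of NQ6 was not high in striatal genes, at 407 CPM. The library of KO male NQ10 had the lowest CA1 sum of the 12, 160 CPM, and the highest sum of thalamic genes, 354 CPM. Its dentate granule genes summed to 69.6 CPM, against a median of 281 CPM over the 12 libraries. Whether the ventral libraries of NQ6 and NQ10 hold RNA of the ventral hippocampus alone was not tested. These libraries are bulk tissue, in which fewer cells of a type and less RNA per cell cannot be told apart.

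Acss2 fell in KO mice of both sexes. The KO males had 8.63, 8.29 and 9.60 CPM (9, 10 and 8 counts), and the WT males had 68.3, 71.7 and 53.6 CPM. The KO females had 4.54, 0.971 and 4.15 CPM (4, 1 and 4 counts), and the WT females had 49.1, 49.7 and 55.1 CPM. Every KO library lay below every WT library, with a KO mean at 10.4% of the WT mean over both sexes, 13.7% in males and 6.28% in females. In one fit over the 12 libraries with the table as covariate, the fitted log2 change was -3.27 ± 0.23 (SE), and edgeR's quasi-likelihood test gave an adjusted p of 1.04e-06. Without NQ6 it was -3.25, in males alone -2.88 and in females alone -3.94. The difference between the sexes in this effect, -1.06 on the log2 scale, had an unadjusted p of 0.0452 and an adjusted p of 0.733, so it was not called.

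**Figure D1:**
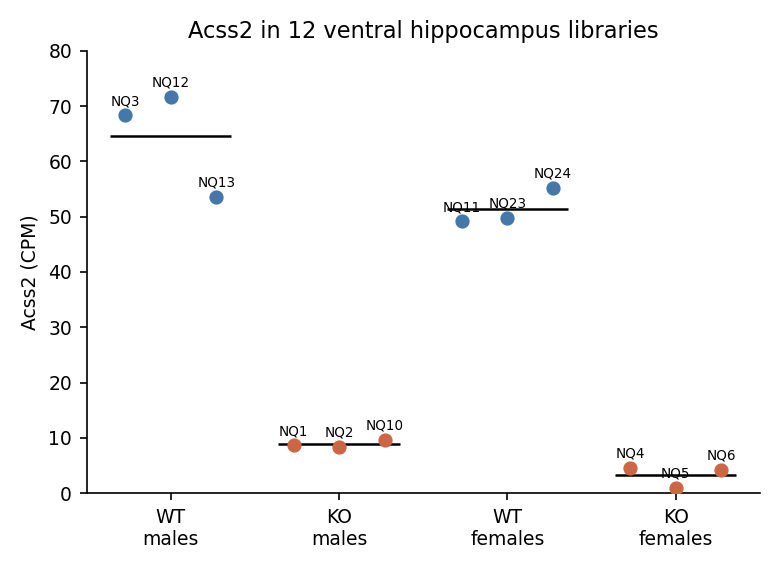
Acss2 level in CPM (linear axis from 0) in each of the 12 ventral hippocampus libraries, grouped by genotype and sex and labelled with the mouse; lines are means of 3 libraries. The KO libraries lie between 0.971 and 9.60 CPM, and the WT libraries between 49.1 and 71.7 CPM.

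Beyond Acss2, no gene passed the threshold. Among 10036 tested genes, 1 (0.00996%) was under the threshold of 0.05 on the adjusted p, and the next smallest adjusted p was 0.982. An unadjusted p under 0.05 was reached by 506 genes (5.04%), of which 260 had higher and 246 lower levels in KO, where an even spread of p-values would give 501.8. DESeq2's Wald test also called 1 gene. Without NQ6 the count was 1 of 10167 (0.00984%), with 530 genes (5.21%) at an unadjusted p under 0.05. The males alone gave 1 gene of 10040, with 811 (8.08%) at an unadjusted p under 0.05 where an even spread would give 502, and the females alone gave 1 of 10073 (0.00993%, with 396 at that level). For 9411 of the other 10035 genes (93.8%) the 95% interval of the log2 fold change lay within 1 of 0, and for 4882 (48.6%) it lay within 0.5. The median SE was 0.18, and changes well above 0.5 could also go uncalled. Grm8, for one, had a log2 fold change of 1.24 ± 0.40 (SE) with an adjusted p of 0.982 (edgeR). The lack of calls therefore does not exclude changes of such size in single genes. The one alternative that gave a much longer list left out the low-count filter and called 101 genes. Of these, 80 had been tested in the main fit and 21 had been removed by the filter. In that fit Acss2 had rank 3 by p. Penk, at 770 CPM in NQ6 and at most 84.0 CPM in the other libraries, had an adjusted p of 5.63e-44 (edgeR). A small p there could thus come from a single library, and the 101 calls are not taken as differences between the genotypes.

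**Figure D2:**
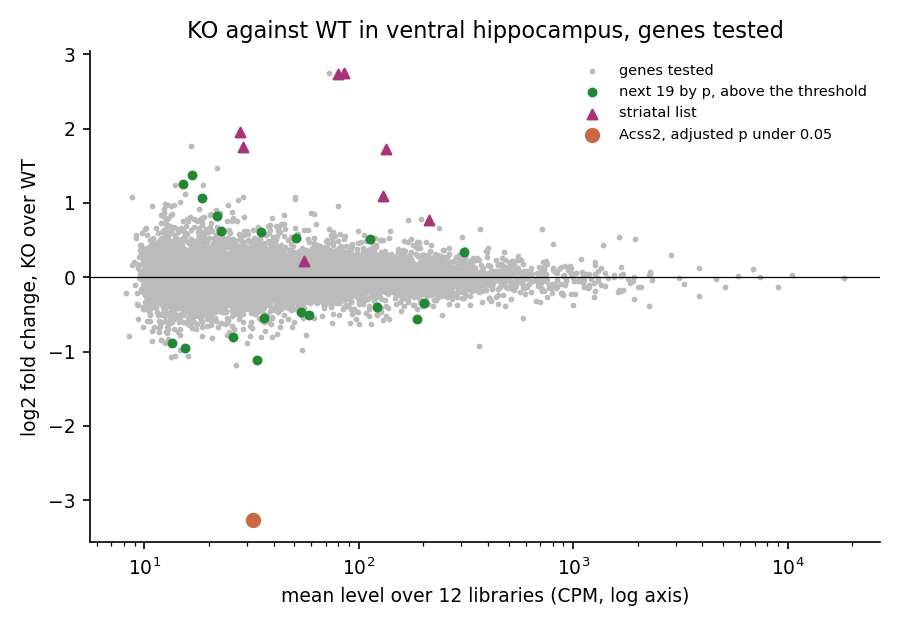
Log2 fold change of KO over WT against the mean level over 12 libraries (CPM, log axis) for the 10036 genes tested (grey), with Acss2 (orange), the next 19 named genes by p (green) and the 8 tested genes of the striatal list (purple triangles). Acss2 at -3.27 stands alone below, and striatal genes reach 2.74 above.

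The 19 genes of at least 10 CPM with the smallest p after Acss2 are given as values, since each had an adjusted p of 0.982. They comprised 9 that were higher and 10 that were lower in KO. All 19 had the same sign in males, in females and without NQ6, but p was the basis on which they were chosen, so these signs give no support to them. Over all genes tested, 15 (0.149%) had KO and WT libraries that did not overlap (6, or 0.0598%, higher and 9, or 0.0897%, lower in KO), and 43 (0.428%) did not overlap in the same direction within each sex. Besides Acss2, the 19 supplied 2 to the first count and 9 to the second.

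Cyfip1 and Hecw2 were the pair of the 19 with no overlap over all 12 libraries. Cyfip1, a partner of FMRP that links translation at synapses to actin branching, had 93.6, 104 and 119 CPM (lowest, median and highest) in KO and 125, 138 and 156 CPM in WT. Its log2 fold change was -0.40 ± 0.10 (SE), and it was -0.36 in females and -0.44 in males. Hecw2, a ubiquitin ligase of the NEDD4 family, had 35.9, 40.9 and 54.0 CPM in KO and 20.6, 26.9 and 34.2 CPM in WT, a log2 fold change of 0.60 ± 0.16 (SE). Its highest KO value was that of NQ6, and without NQ6 the log2 fold change was 0.50.

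Several of the lower genes act on actin and adhesion. Bcar1, the p130Cas scaffold of integrin signalling, had 33.2, 47.9 and 60.5 CPM in KO against 59.3, 68.6 and 76.5 CPM in WT (log2 fold change -0.52 ± 0.12). Vasp, which extends actin filaments, had 4.86, 9.72 and 12.5 CPM against 12.1, 17.3 and 22.8 CPM (-0.88 ± 0.24). With Cyfip1 these make 3 such genes of the 10 that were lower, a grouping made after their names were seen and not tested. The KO and WT ranges of both Bcar1 and Vasp overlapped over all 12 libraries, while for Bcar1 KO lay below WT within each sex.

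Others of the 19 have roles in metabolism or signalling. Pdhx, the component of the pyruvate dehydrogenase complex that anchors its E3 subunit and thus a source of acetyl-CoA inside mitochondria, had 36.3, 41.6 and 58.5 CPM in KO and 54.1, 61.7 and 70.7 CPM in WT (-0.47 ± 0.13). Gk, glycerol kinase, had 24.9, 28.2 and 36.9 CPM in KO and 34.2, 42.8 and 49.2 CPM in WT (-0.56 ± 0.15). Kctd12, an auxiliary subunit of GABA-B receptors, had 118, 153 and 184 CPM in KO and 164, 212 and 299 CPM in WT (-0.56 ± 0.15). KO and WT overlapped over all 12 libraries in these 3 genes, and in Pdhx and Kctd12 KO lay below WT within each sex.

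On the higher side, Huwe1, a large ubiquitin ligase, had 283, 349 and 379 CPM in KO and 231, 280 and 307 CPM in WT (0.34 ± 0.10). Sorcs1, a sorting receptor of the VPS10 family, had 9.71, 19.4 and 46.8 CPM in KO and 6.24, 9.21 and 11.7 CPM in WT (1.37 ± 0.38). Myh7, the slow cardiac and skeletal myosin heavy chain, had 11.5, 20.7 and 33 CPM in KO and 1.99, 9.42 and 17.1 CPM in WT (1.25 ± 0.30). Its log2 fold change was 2.26 in males and 0.78 in females. The WT males held 4, 2 and 2 counts of Myh7, close to the limit of 3 counts, so the value in males is uncertain. The remaining genes were Zfp318, Samd5, Gm42372, Stk38l and Gdpd5, higher by 0.52 to 1.06 on the log2 scale, and Srek1ip1, Smoc2, Kifbp and Eya1, at log2 fold changes from -1.11 to -0.35. Only 7 genes were shared by the 20 smallest p with NQ6 and the 20 without it.

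**Figure D3:**
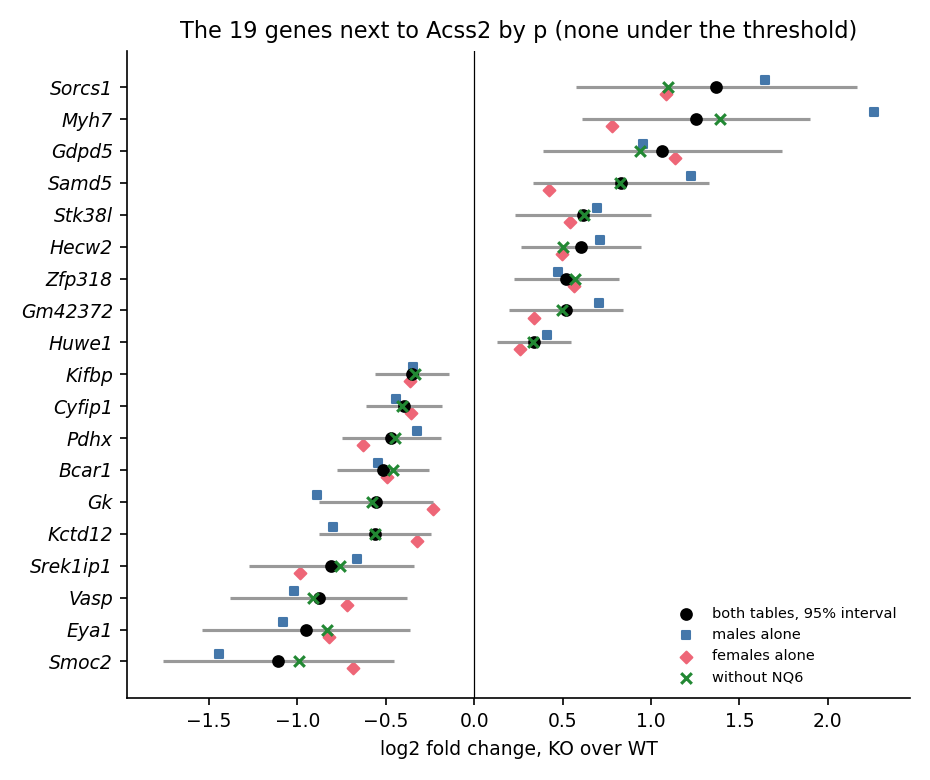
Log2 fold changes of KO over WT for the 19 genes after Acss2 by p, with the 95% interval over 12 libraries (black and grey), males alone (blue squares), females alone (pink diamonds) and without NQ6 (green crosses). All 4 estimates share a sign in each gene, which the choice by p favours; each adjusted p is 0.982.

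Striatal genes set NQ6 apart from the other libraries. NQ6 was known beforehand to be high in striatal genes, so the values here describe that library and are no test. All 16 striatal genes were higher in NQ6 than in any of the other 11 libraries. Penk, the precursor of enkephalin, was at 770 CPM in NQ6 and at 11.3 to 84.0 CPM in the others. Ppp1r1b, which encodes DARPP-32, was at 1079 CPM against 32.9 to 65.2 CPM, and the dopamine receptor Drd2 was at 110 CPM against 0 to 15.6 CPM. The summed level was 51.5% of that in the dorsal striatum and 60.5% of that in the ventral striatum of the same mouse. In the same library the dentate granule list summed to 64.4 CPM, against a KO median of 268 and a WT median of 336 CPM. That list was at 60.9 CPM in the dorsal striatum, 67.1 in the cortex and 676 in the dorsal hippocampus of NQ6. The CA1 list summed to 624 CPM, within the range of 160 to 782 CPM over all 12 libraries, NQ6 included. It does not mark hippocampus alone, with 989 CPM in the ventral and 201 CPM in the dorsal striatum of NQ6.

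Of the 16 striatal genes 8 were tested. Their median log2 fold change was 1.73 with NQ6 in the fit and 0.03 without it, a description of 1 library rather than a test of genotype. Penk had a log2 fold change of 2.74 ± 0.99 (SE, adjusted p 0.982), and Ppp1r1b went from 1.72 to -0.18 when NQ6 was left out. The spread over the other 11 libraries, 376 to 480 CPM in sum, held both genotypes.

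The mean level of myelin genes of mature oligodendrocytes was higher in every KO male than in any WT male, whereas the 3 KO females lay on both sides of the WT females. As the mean log2 CPM of 16 genes, the level was 6.65, 7.27 and 7.09 in KO males and 6.01, 6.24 and 5.90 in WT males, so the groups did not overlap. In females it was 5.77 in NQ4, 5.44 in NQ5 and 7.48 in NQ6, against 6.56, 6.81 and 6.55 in WT, so that NQ4 and NQ5 lay below and NQ6 above every WT female. The KO minus WT difference was 0.95 in males, -0.41 in females, 0.27 pooled and 0.10 pooled without NQ6. Other cell type lists differed in the same males, by -1.23 for dentate granule, -0.34 for astrocyte and -0.37 for microglia genes, and their part in the myelin values was not tested. In summed CPM, the lowest, median and highest KO libraries had 1802, 6271 and 10428, and the WT libraries had 2729, 4364 and 6123.

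By gene, all 16 had a higher fitted level in KO, and 0 of the 16 had an unadjusted p under 0.05, against 5.04% of all genes. Their median log2 fold change was 0.45, and 0.09 without NQ6, where all genes had medians near 0. Mbp, myelin basic protein, had 687, 2428 and 4371 CPM in KO and 1038, 1595 and 2388 CPM in WT, with a log2 fold change of 0.51 ± 0.34 (SE). Mobp (0.65 ± 0.41), Mog (0.64 ± 0.38) and Myrf (0.64 ± 0.36), which encode a structural myelin protein, a surface glycoprotein of myelin and a transcription factor of myelination, had intervals that also included 0. In KO males NQ2 and NQ10 all 16 genes were above every WT male, and in NQ1 14 were, so 14 of 16 genes did not overlap in males, against 7.16% of all genes (719 of 10036) with that order. In KO females NQ5 all 16 and in NQ4 14 were below every WT female, whereas in NQ6 14 were above. For single libraries the share of all genes was not counted, and the 16 genes move together, so these counts are descriptions. Precursor genes did not follow: 6 of 7 were tested, and their median log2 fold change was 0.02.

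**Figure D4:**
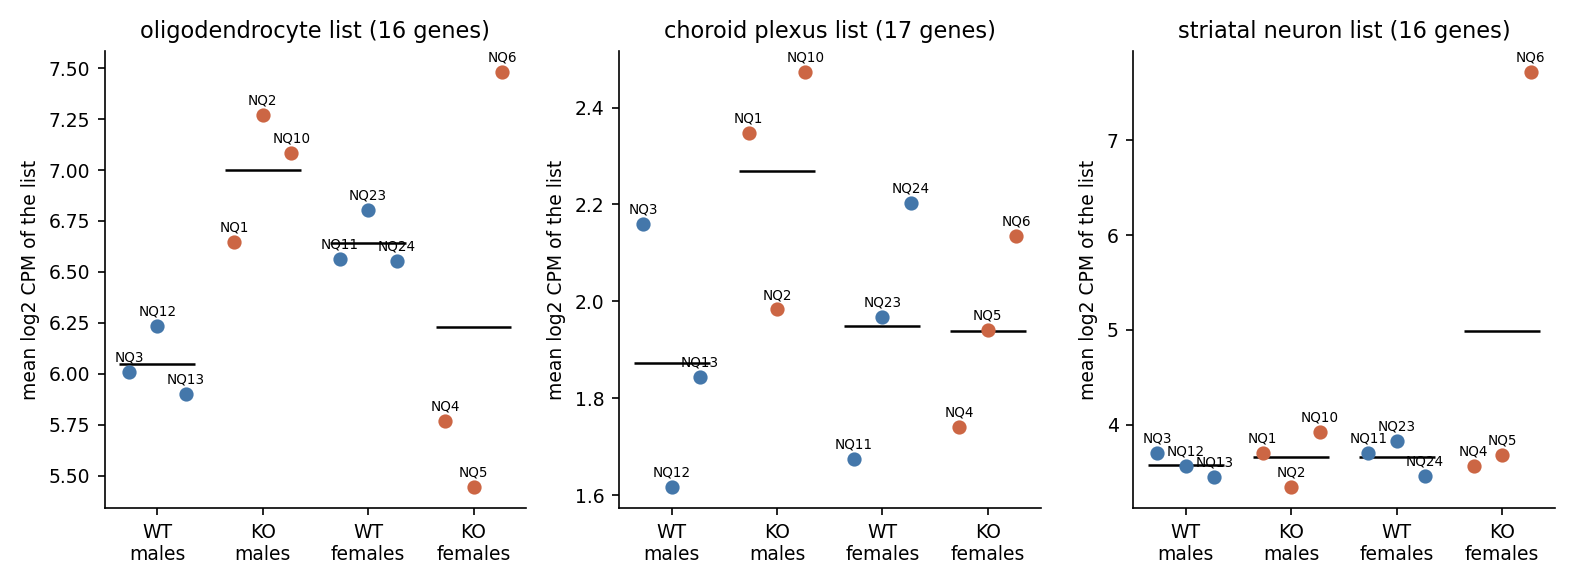
Mean log2 CPM of the oligodendrocyte, choroid plexus and striatal neuron lists in each library, by genotype and sex, with mice labelled and lines at the means of 3 libraries; the axes differ and do not start at 0. KO males lie above WT males in the first panel, NQ4 and NQ5 lie below WT females there, and NQ6 alone reaches 7.73 in the third.

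The sexes were compared directly by testing the interaction of genotype and table. Over the 12 libraries 0 of 10769 genes (0%) had an adjusted p under 0.05, with 714 at an unadjusted p under 0.05 and a smallest adjusted p of 0.720; DESeq2's Wald test also called 0. The 3 genes with the smallest p were Mras (a RAS-family GTPase, 0.93 ± 0.21 on the log2 scale), Ric1 (1.16 ± 0.27) and Pkig, an inhibitor of protein kinase A (1.23 ± 0.29). Mras had 201, 186 and 156 CPM in KO males against 270, 227 and 226 CPM in WT males, and 266, 221 and 247 CPM in KO females against 177, 181 and 177 CPM in WT females. Its groups did not overlap in either sex and were ordered in opposite ways. Mras was chosen for its small p in this test, so that order gives it no support. The share of all genes with such an order was not counted.

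Without NQ6, 15 of 11061 genes (0.136%) had an adjusted p under 0.05 in that interaction, all with a KO effect that was lower in females than in males. These genes are named although the rule for naming did not choose them, after their values were seen. Of the 15, 11 are in the oligodendrocyte list (among them Mog, Cldn11, Mag, Mal, Mobp, Cnp, Mbp, Ugt8a, Fa2h and Myrf), and the others were Trf, Enpp2, Bcas1 and Tmem88b. Trf, transferrin, and Bcas1 are known for expression in oligodendrocytes. For Mog the interaction was -2.75 ± 0.38 (SE, adjusted p 0.00548, edgeR), from means of 58.8 CPM in KO and 22.5 CPM in WT males and of 16.8 CPM in KO females NQ4 and NQ5 and 43.7 CPM in WT females. In NQ6 Mog was at 92.4 CPM, and with NQ6 in the fit the interaction was -1.36 with an adjusted p of 0.750.

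All 16 oligodendrocyte genes had a negative interaction without NQ6, and 15 of the 16 had an unadjusted p under 0.05, where 427 of all 11061 genes (3.86%) were negative at that level. When the oligodendrocyte level of each library was added as a covariate, a fit chosen after the data were seen, 0 genes were called and 485 had an unadjusted p under 0.05. This covariate is the mean over all 16 genes of the list, which include 11 of the 15 genes called. Since the female KO group is then NQ4 and NQ5, the calls rest on 2 libraries. With each other mouse left out in turn 0 genes were called, but each of those fits still held NQ6. They therefore cannot show whether the calls made without NQ6 would remain if a further mouse were left out, which was not tested.

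**Figure D5:**
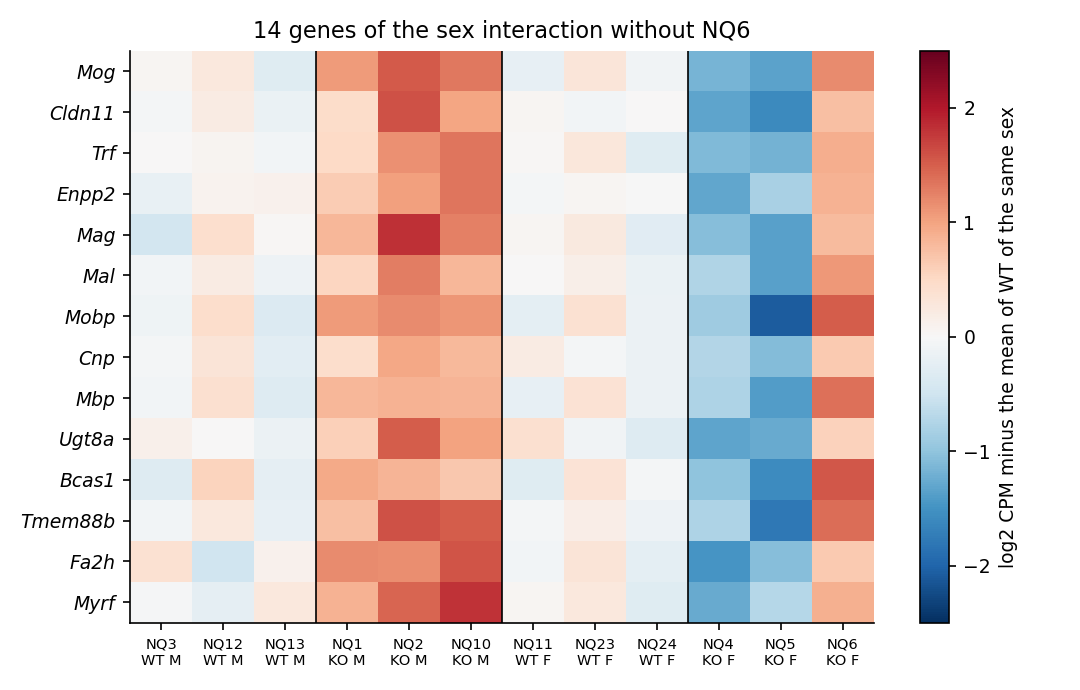
Heat map of 14 of the 15 genes with an adjusted p under 0.05 in the sex interaction without NQ6: colour is the log2 CPM of a library minus the mean of the WT libraries of its sex, with mice in columns. The 3 KO males are above WT (red), NQ4 and NQ5 below (blue), and NQ6, which was not in that fit, above.

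Choroid plexus signal was low and rested on few genes. Of 17 list genes, 16 had any count in the 12 libraries, 3 passed the filter, and Slc4a5 was at 0 in all of them. Between 7 and 12 of the 17 were at 0 in a KO library and between 8 and 15 in a WT library. Enpp2, the autotaxin gene, which oligodendrocytes also express, supplied most of the sum, with 47.7, 149 and 212 CPM in KO and 74.6, 100 and 128 CPM in WT. The 15 members other than Enpp2 and Ttr summed to 14.6 to 45.6 CPM in KO and 12.8 to 34.9 CPM in WT, so the genotypes overlapped. Summed over all 17, the list was at 72.6 to 286 CPM in KO (median 218) and 107 to 170 CPM in WT (median 128). KO males had 232, 204 and 286 CPM and WT males 129, 107 and 116 CPM. NQ4, NQ5 and NQ6 had 72.6, 104 and 239 CPM and WT females 127, 157 and 170 CPM. Enpp2 alone was ordered in the same way within each sex. The KO minus WT list level was 0.39 in males and -0.01 in females. The dorsal hippocampus of the same mice had 150 to 7286 CPM with a median of 212, against a ventral median of 143.

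Ttr, transthyretin, the most abundant secreted protein of that epithelium, had the largest fold change among the 3 tested genes of the list. KO males had 75.8, 11.6 and 27.6 CPM (79, 14 and 23 counts) and WT males had 19.1, 0 and 0.993 CPM (12, 0 and 1 counts). KO females had 2.27, 22.3 and 14.5 CPM (2, 23 and 14 counts) and WT females had 0, 7.73 and 16.6 CPM (0, 7 and 16 counts). The ranges overlapped in both sexes, and NQ1 held the highest value. In the fit over both sexes it stood at 1.76 ± 0.73 (log2 fold change and SE), where the unadjusted p was 0.0262 and the adjusted p 0.982. Kl (klotho) was lower in KO at -0.56 ± 0.27 (unadjusted p 0.0499), and Enpp2 had 0.44 ± 0.30.

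Most tested astrocyte and microglia genes had lower fitted values in KO, and 0 of them passed the threshold. By sex, the KO minus WT list level was -0.34 in males and 0.07 in females for astrocytes, and -0.37 in males and -0.06 in females for microglia. In the astrocyte list 12 of 13 tested genes had a negative fold change (median -0.14), and 1 was lower at an unadjusted p under 0.05, against 2.45% of all genes. That gene was Sox9, a transcription factor of astrocytes, at 15.6, 24.1 and 30.6 CPM in KO and 19.9, 37 and 38.9 CPM in WT (-0.45 ± 0.19). In the microglia list 11 of 11 tested genes had a negative fold change, with a median of -0.21. Trem2, the lipid receptor of microglia, had 5.83, 9.10 and 16.6 CPM in KO and 9.61, 15.7 and 23.8 CPM in WT (-0.70 ± 0.29, unadjusted p 0.0253), and without NQ6 4 of the genes were lower at that level (2.46% of all genes). The members of a list are measured in the same libraries and move together, so these counts are descriptions. The 10 tested vascular genes had a median of -0.04, with 3 higher and 7 lower. Among them Vtn (vitronectin), a pericyte gene, had a log2 fold change of -0.55 ± 0.21, while Pdgfrb, another pericyte gene, had -0.09 and the endothelial Pecam1 had 0.37. Hbb-bs, a haemoglobin gene, had -0.53 ± 0.25.

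Neuronal lists overlapped between the genotypes. The 5 tested dentate granule genes were all lower in KO (median -0.51, and -0.39 without NQ6), and 0 had an unadjusted p under 0.05, against 5.04% of all genes. Their list level differed by -1.23 in males and by 0.02 in females. Among KO males it was 5.10 in NQ1, 5.07 in NQ2 and 3.32 in NQ10, against 5.08, 6.33 and 5.77 in WT males. Dentate sums ran from 64.4 to 452 CPM in KO and from 136 to 680 CPM in WT, and NQ10 (69.6 CPM) was as low as NQ6. Among 8 genes of GABA neurons, Gad2, which makes GABA, had 120, 186 and 328 CPM in KO and 117, 142 and 167 CPM in WT (0.47 ± 0.17, unadjusted p 0.0121). Its log2 fold change was 0.28 without NQ6, while Gad1, its partner enzyme, had 0.03. Genes of neocortical neurons, 6 of 6 tested, had a list level higher in KO by 0.44 pooled, 0.43 without NQ6, 0.41 in males and 0.46 in females, and 0 of the 6 had an unadjusted p under 0.05. Their sums ran from 175 to 264 CPM in KO and from 126 to 334 CPM in WT. The pooled difference in list level was 0.12 for CA1 (-0.0093 without NQ6), 0.01 for CA2 and CA3, and 0.04 for thalamic genes (0.19 without NQ6). Genes of the ventral pole of the hippocampus varied widely in both genotypes, from 120 to 521 CPM in KO and from 70.5 to 329 CPM in WT. The lowest, WT male NQ13, was under the dorsal hippocampus median of 82.9 CPM. That list does not mark ventral hippocampus alone, with medians of 261 CPM there and 439 CPM in the amygdala.

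Acss2 was the only gene under the threshold among the pathways around the deleted enzyme. Of 19 genes of acetate and acetyl-CoA handling 16 were tested, with a median log2 fold change of 0.02. Acss1, which makes acetyl-CoA from acetate in mitochondria, had 25.9, 35 and 44.3 CPM in KO and 25.4, 33.4 and 50.8 CPM in WT. Acly, ATP citrate lyase, the other main source of acetyl-CoA outside mitochondria, had 160, 203 and 205 CPM in KO and 139, 153 and 186 CPM in WT. The log2 fold change of Acly was 0.30 ± 0.11 (SE; unadjusted p 0.0143, adjusted p 0.982), and it lay between 0.25 and 0.34 in all 22 alternatives. Pdhb, a subunit of pyruvate dehydrogenase, had -0.22 ± 0.12.

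Lipid synthesis draws on that acetyl-CoA. Of 24 sterol and fatty acid genes, 22 were tested, 15 had a positive fold change, and the median was 0.07. Srebf1, the transcription factor of fatty acid synthesis, had 54.0, 62.5 and 73.0 CPM in KO and 40.7, 50.8 and 60.7 CPM in WT (0.30 ± 0.12, unadjusted p 0.0247), and it was 1 of 22 higher at that level, against 2.59% of all genes. Fasn, fatty acid synthase, had 251, 268 and 331 CPM in KO and 222, 256 and 283 CPM in WT.

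Among 30 genes of histone acetylation, 29 were tested and 0 had an unadjusted p under 0.05, against 5.04% of all genes, with a median log2 fold change of -0.02. Without NQ6 the histone and GABA-A receptor lists each had 1 higher and the activity-induced list 1 lower. Crebbp, an acetyltransferase and coactivator, had 0.27 ± 0.14 and Hdac4, a class II deacetylase, had 0.35 ± 0.19. Of 24 activity-induced genes 18 were tested, and 0 passed that level. Egr1 had 48.6, 78.4 and 220 CPM in KO and 44.9, 52.4 and 136 CPM in WT (0.58 ± 0.34), and Arc and Bdnf overlapped between the genotypes as well. Ethanol-oxidizing enzymes gave 0 of 7 tested, with Aldh2, the mitochondrial acetaldehyde dehydrogenase, at 0.24 ± 0.12. Glycolysis and citrate cycle genes gave 0 of 29, GABA-A receptor subunits 0 of 12, and transcripts of the mitochondrial genome 0 of 7. At 5.04% of all genes, counts of 0 in lists this short say little.

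Of 22 glutamate receptor genes, 2 were higher at an unadjusted p under 0.05 (2.59% of all genes) and 1 without NQ6 (2.75%), and the median was 0.00. Grm8, a presynaptic group III receptor, had 12.5, 19.6 and 25 CPM in KO and 1.04, 7.78 and 20.6 CPM in WT (1.24 ± 0.40, unadjusted p 0.00638). Grm4, of the same group, had 13.6, 23.6 and 31.1 CPM in KO and 1.99, 9.83 and 34.9 CPM in WT (0.92 ± 0.43, unadjusted p 0.0445). Each adjusted p was 0.982, and the ranges overlapped. The lowest WT value of each gene lay below the limit of 3 counts, which was at 2.98 CPM or more in WT libraries. Genes near Acss2 on chromosome 2, which stay linked to the edited allele in breeding, gave 0 of 17 tested at that level in either direction, against 5.04% of all genes, with a median of -0.04.

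The dorsal hippocampus of the same mice was fitted in the same way to compare the regions. Of 13845 genes tested there, 1 (0.00722%) passed, again Acss2, at a log2 fold change of -2.94 ± 0.16 (SE). Among the 19 genes listed above, the largest log2 fold changes in size there were those of Smoc2 (-0.23) and Gdpd5 (-0.18). Because the 19 were chosen for small p in the ventral hippocampus, a smaller value elsewhere follows from the choice. In the direct test of the difference between regions 0 of 12895 genes (0%) had an adjusted p under 0.05, with 450 at an unadjusted p under 0.05. For Acss2 that difference was -0.36 ± 0.31. DESeq2's Wald test called 1. The 3 smallest p of edgeR in that test were those of Gk (-0.70), Naaa, which hydrolyses fatty acid ethanolamides (-0.85 ± 0.21), and Drd2 (4.43 ± 1.18), which was high in NQ6 as given above. The regions differ in depth, so region and depth cannot be told apart.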

How the data were processed

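The authors deposited raw read counts per gene symbol, in a table for each sex. STAR 2.5.2a, SAMtools 1.1, HTSeq 0.6.1, DESeq2 and R 4.0.2, with builds GRCm38 and mm10, are named per the submitters' processing notes, and the counting settings are not given in the sources used here. Libraries were grouped by their labels. Counts were fitted with edgeR 4.0.16 (quasi-likelihood test, R 4.3.3, limma 3.58.1): TMM normalization, filterByExpr (minimum count 10, minimum total 15), the table as covariate, Benjamini-Hochberg adjustment over all genes tested, threshold 0.05. Interactions of genotype with table and with region were tested in the same way. The fits were tested on simulated data. List levels are means of log2 CPM with a prior count of 2.

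The genes named are Acss2 and those with the smallest p at a mean of at least 10 CPM, up to 20 in all. Xist and Ddx3y, the 3 smallest p of each interaction, and from each of 28 lists the 3 smallest p and the 2 highest levels were added to these. Other list genes are given as values, and 1 gene of the oligodendrocyte list is not reported here by name. The members and lists were chosen with earlier results of these data known. Alternatives were DESeq2's size factors, no low-count filter, DESeq2's Wald test (DESeq2 1.42.0), each mouse left out in turn, each table alone, no table covariate, marker levels as covariates, length and GC offsets (GENCODE M21, loess span 0.5), a prior count of 0.5 and the mouse as block. Mouse numbers pair the regions, because both libraries come from the same animal per the labels. Deviations of the same mouse from its group correlated between regions at -0.21 to 0.17. Libraries of a group come from different mice, and 12 pairs of one genotype and table differed with a chi-square per gene of 1.64 to 5.55.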

Additional observations from a re-analysis of the deposited data

Results flagged for a closer look

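In groups of 6 libraries, a library at either end was singled out when its gap to the nearest other library exceeded 0.625 of the group's range. Over 148 groups checked, chance alone would single out about 5% of groups, and 15 were found. The 2 figures cannot be set against each other, since NQ6 was known to be high in striatal genes and list genes were named by their p. Among the lists (mean log2 CPM), KO mouse NQ6 was high in striatal genes (7.73). KO mouse NQ10 was low in CA1 genes (4.31) and in genes of the dorsal pole (3.00) and high in sterol and fatty acid genes (6.29). Of the 3 dorsal pole genes, Spink8 and Wfs1 are also in the CA1 list, so its low values in these lists are not independent. The dorsal pole list does not mark that pole alone, with medians of 401 CPM in ventral striatum and 246 CPM in dorsal hippocampus. KO mouse NQ4 was high in glutamate receptor genes (6.64), and WT mouse NQ23 was high in oligodendrocyte precursor genes (5.33).

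Among single genes (log2 CPM), NQ6 was high in Rgs9 (7.71), Ppp1r1b (10.18), Adcy5 (9.66) and Hecw2 (5.91) and low in Smoc2 (3.14). NQ4 was high in Crebbp (6.07), and KO mouse NQ1 was low in Hdac4 (4.97). WT mouse NQ12 was low in Gm42372 (5.74), and WT mouse NQ11 was high in Gdpd5 (4.95).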

How the results depend on the processing

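Under 21 of the 22 alternatives of the ventral hippocampus comparison 1 gene was under the threshold, and without the low-count filter there were 101. Acss2 kept its direction and its call in all 22, with log2 fold changes from -3.94 to -2.88. Without the filter the sex interaction called 117 genes and the region interaction 129, and DESeq2's Wald test called 1 in the region interaction. Leaving out each mouse in turn gave 0 to 15 genes in the sex interaction, with 15 without NQ6, and 1 to 2 genes in the dorsal hippocampus, with 2 without WT mouse NQ13. With the mouse as replicate block the region interaction called 0 genes (451 at an unadjusted p under 0.05), so the pairing changed no call. The KO minus WT oligodendrocyte level was 0.95 in males and -0.41 in females. Of 1011 pairs of a gene and an alternative, 989 kept direction and side of the threshold, 15 passed it without the filter (Myh7, Kctd12, Sorcs1, Smoc2, Gdpd5, Ttr, Grm8, Egr1, Mbp, Mobp and the striatal Penk, Rgs9, Tac1, Ppp1r1b and Adcy5, at adjusted p from 5.63e-44 to 0.0359), and 7 changed direction. These 7 were Ppp1r1b without NQ6 (-0.18, the lowest value with a mouse left out, the highest being 1.95) and with the striatal covariate (-0.19), Mbp (-0.0091) and Mobp (-0.047) with the oligodendrocyte covariate, Mbp with the striatal covariate (-0.0070), and Enpp2 (-0.11) and Myrf (-0.097) in females alone. The oligodendrocyte covariate is made in part from Mbp and Mobp, and the striatal covariate in part from Ppp1r1b. A fit with a covariate that holds the gene itself is no test of that gene's direction. The cause of the 7 shifts was not tested. The depth of the libraries limits genes of low level, and 2.22% of fold change variance followed a trend with length and GC content.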
